A study of Mus musculus with 6 samples.

Results

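The metallothionein genes Mt1, Mt2 and Mt3 and the gene of their zinc-sensing transcription factor, Mtf1, were taken by symbol from the RNA-seq counts of the mouse prefrontal cortex (PFC). These 4 genes were found among 22000 gene symbols, and all 4 were among the 13185 genes with a level of 1 CPM (counts scaled to the library total) or more throughout a group. The libraries came from 6 male C57BL/6N mice of 9 weeks, 1 library per mouse. In the early life stress (ELS) group, 3 mice had been housed alone from weaning, and the 3 control mice had shared a cage with other males. Both groups were wild type. Each sample was a whole piece of PFC tissue, so fewer cells of a type and less RNA per cell cannot be told apart.

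Metallothioneins are small proteins rich in cysteine that bind zinc and copper ions and buffer the free metal inside the cell. In brain, Mt1 and Mt2 are made mainly by astrocytes and are induced by zinc, glucocorticoid hormones and oxidative stress, while Mt3 is the brain-enriched member and responds little to metals. Mtf1 binds metal response elements in DNA when zinc rises and switches on Mt1, Mt2 and the zinc exporter gene Slc30a1.

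The coding sequences are shown because the cysteine codons are what the family shares and because near-identical copies could exchange reads. The principal transcripts of GENCODE M21 (GRCm38) were used, without the stop codon, with the cysteine codons TGC and TGT in capitals.
Mt1: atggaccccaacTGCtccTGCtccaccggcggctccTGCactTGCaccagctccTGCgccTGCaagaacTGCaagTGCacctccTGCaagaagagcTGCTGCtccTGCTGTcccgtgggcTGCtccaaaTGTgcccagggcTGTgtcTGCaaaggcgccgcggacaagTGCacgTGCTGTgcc
Mt2: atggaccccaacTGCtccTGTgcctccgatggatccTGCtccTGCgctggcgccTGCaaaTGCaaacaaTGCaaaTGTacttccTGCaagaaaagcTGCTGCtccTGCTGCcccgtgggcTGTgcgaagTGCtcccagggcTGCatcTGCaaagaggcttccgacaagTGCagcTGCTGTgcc
Mt3: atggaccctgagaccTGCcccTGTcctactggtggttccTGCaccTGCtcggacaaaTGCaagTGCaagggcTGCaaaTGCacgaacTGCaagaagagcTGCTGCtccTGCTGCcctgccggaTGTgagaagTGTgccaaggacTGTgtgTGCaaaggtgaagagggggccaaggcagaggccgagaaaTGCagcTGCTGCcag
Mt1 and Mt2 each had 61 codons, of which 20 (32.8%) were for cysteine, and Mt3 had 68 codons, of which 20 (29.4%) were for cysteine. Each gene had 3 pairs of adjacent cysteine codons and 7 places where a single other codon lay between a pair of cysteine codons. Over the aligned bases, identity was 79.2% between Mt1 and Mt2, 73.2% between Mt1 and Mt3 and 74.9% between Mt2 and Mt3. The longest run of identical bases was 27, between Mt1 and Mt3, and no run of 50 bases was shared between transcripts of any pair of the 3 genes.

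The 3 metallothionein genes lie in a row on the plus strand of chromosome 8 (GRCm38). Mt3 runs from 94152607 to 94154146, Mt2 from 94172664 to 94173568 and Mt1 from 94179082 to 94180327, with 18517 bp between Mt3 and Mt2 and 5513 bp between Mt2 and Mt1. Mt4, the family member of stratified epithelium, lies 13575 bp before Mt3. Mtf1 is on chromosome 4, from 124802104 to 124849800 on the plus strand. The principal transcript has 3 exons in Mt1, Mt2, Mt3 and Mt4 and 11 in Mtf1. An antisense gene, Gm45774, overlaps 432 bp of the Mt2 exons (73.5%), and another opposite-strand gene overlaps 8.09% of the Mtf1 exons. The strand setting of the counting is not given in the sources used here, so without it reads of Mt2 and of Gm45774 cannot be told apart.

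Start regions are shown because Mtf1 binds metal response elements in DNA. Only a window around the annotated start was searched, and sites beyond it were not sought. The RefSeq sequences (GRCm38.p6, plus strand, from 250 bases before the annotated start to 30 bases after it) cover chr8:94178839-94179118 for Mt1, chr8:94172368-94172647 for Mt2 and chr8:94152357-94152636 for Mt3. The RefSeq start lies 46 bases before the GENCODE start given above in Mt2, 7 bases after the GENCODE start in Mt1, and at the same base in Mt3. In Mtf1 it lies 445 bases after the GENCODE start, so the whole Mtf1 window is inside the GENCODE gene. Positions below count from the RefSeq start. Capitals mark matches, on either strand, to the metal response element core TGCACNC or TGCGCNC.
Mt1 start region: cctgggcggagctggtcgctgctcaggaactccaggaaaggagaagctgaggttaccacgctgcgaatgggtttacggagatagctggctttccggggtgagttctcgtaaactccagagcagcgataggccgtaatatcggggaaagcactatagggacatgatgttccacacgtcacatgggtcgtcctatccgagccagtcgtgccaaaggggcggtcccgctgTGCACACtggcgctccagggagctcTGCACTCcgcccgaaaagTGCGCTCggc
Mt2 start region: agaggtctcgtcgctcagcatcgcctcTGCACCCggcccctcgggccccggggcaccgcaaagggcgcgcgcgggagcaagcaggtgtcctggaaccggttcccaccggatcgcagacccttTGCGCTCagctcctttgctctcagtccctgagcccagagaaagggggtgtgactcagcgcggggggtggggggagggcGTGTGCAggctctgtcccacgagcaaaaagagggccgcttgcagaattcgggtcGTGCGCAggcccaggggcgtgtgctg
Mt3 start region: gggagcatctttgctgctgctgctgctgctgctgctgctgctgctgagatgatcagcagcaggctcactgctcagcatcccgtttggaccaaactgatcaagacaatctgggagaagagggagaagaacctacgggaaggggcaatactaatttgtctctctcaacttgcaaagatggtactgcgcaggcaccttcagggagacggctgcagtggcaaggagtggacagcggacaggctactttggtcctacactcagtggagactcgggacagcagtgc
The Mt1 region held 3 matches, beginning at positions -23, 3 and 21 from the start. The Mt2 region held 4, beginning at -223, -128, -50 and 5. No match was in the Mt3 or Mtf1 region, and 1 was in the Mt4 region. Among 32851 promoters of the same length, 24.1% had at least 1 match and 1.73% had at least 3. The antioxidant response element core TGACNNNGC had 1 match in the Mt2 region, at -79, overlapping no metal response core, and was in 11.5% of promoters. The E box CACGTG (6.79% of promoters) was in none of the 5 regions, and the glucocorticoid receptor hexamer TGTTCT (17.8% of promoters) was only in the Mtf1 region, at -223. The full glucocorticoid response element was in none of the 5 regions and in 0.00913% of promoters. Exact matches were so rare that its absence from these windows says little. These matches are letters in a window and not measured binding sites.

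**Figure D1:**
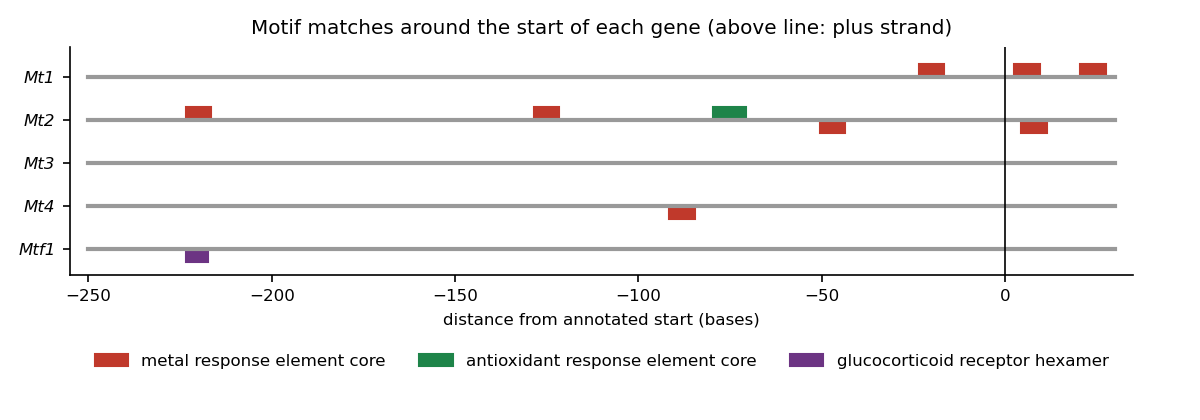
Motif matches in the start regions of the 5 genes. The x axis is the distance in bases from the annotated start; boxes above each line are on the plus strand and boxes below it on the minus strand. Mt1 has 3 and Mt2 has 4 metal response element cores, and Mt3 has none.

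Total counts ran from 28405795 to 35241743 per mouse, with all ELS libraries deeper than the control ones. Levels below are CPM scaled by the TMM factors of edgeR (0.992 to 1.02). Groups were compared with edgeR's quasi-likelihood test, and a gene was called at a Benjamini-Hochberg adjusted p under 0.05, over all genes tested, and an absolute log2 fold change above 0.3. With 3 mice in each group, the smallest exact permutation p is 0.1. By the quasi-likelihood call, 0 of the 4 genes passed, against 0.0152% (2 genes) of all genes tested. At an unadjusted p under 0.05 the count was 1 of 4, against 4.23% of all genes.

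Mt2 was the member with the clearest difference between groups, and it did not pass the adjusted threshold. Its level in control mice 1 to 3 was 78.0, 77.3 and 80.1 CPM, against 63.6, 68.5 and 68.0 CPM in ELS mice 1 to 3. Every ELS mouse lay below every control mouse, with a gap of 8.77 CPM between the nearest mice of the groups. Of all genes tested, 4.47% had every ELS mouse below every control mouse. The means were 78.5 ± 1.44 CPM (control) and 66.7 ± 2.7 CPM (ELS; SD, n = 3 per group). The log2 fold change of Mt2 was -0.23 (SE 0.0648, 95% interval -0.374 to -0.0932), a level in ELS mice of 0.850 times that in control mice. The unadjusted p was 0.00339, rank 58 of 13185 genes, and the adjusted p was 0.771 (edgeR quasi-likelihood test). The exact permutation test gave p = 0.1, the smallest it can give. Mt2 counts were 2121 to 2402 per mouse, a counting error of 2.04% to 2.17% in each mouse. The spread between control mice (CV 1.83%) was smaller than that counting error, and the spread between ELS mice was 4.05%.

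Mt1, the neighbour of Mt2 on the chromosome, had groups that overlapped. Control mice 1 to 3 had 134, 150 and 164 CPM of Mt1, and ELS mice 1 to 3 had 145, 141 and 141 CPM. All ELS values lay inside the control range, and the CV was 9.95% in control mice against 1.63% in ELS mice. The log2 fold change was -0.07 (SE 0.0769, 95% interval -0.236 to 0.0978, edgeR adjusted p = 1.0). The exact permutation test for Mt1 gave p = 0.6. The interval in fold terms ran from 0.849 to 1.07 and so still held the estimate for Mt2, 0.850.

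Mt3, the brain-enriched member, had the largest counts of the family (6971 to 8256 per mouse). Its level in control mice 1 to 3 was 227, 247 and 273 CPM, against 245, 216 and 256 CPM in ELS mice 1 to 3. The lowest value was in ELS mouse 2 and the highest in control mouse 3, with the other mice between them in mixed order. The log2 fold change was -0.06 (SE 0.0851, 95% interval -0.244 to 0.125, edgeR adjusted p = 1.0), and the exact permutation test gave p = 0.6.

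Mtf1, the zinc-sensing transcription factor, was the least abundant of the 4. Control mice 1 to 3 had 34.8, 32.8 and 30.7 CPM, and ELS mice 1 to 3 had 28.9, 30.6 and 32.6 CPM. The groups overlapped, and the ELS value was the lower one in 8 of 9 pairs of a control and an ELS mouse. The log2 fold change was -0.10 (SE 0.0801, 95% interval -0.27 to 0.0776, edgeR adjusted p = 1.0), and the exact permutation test gave p = 0.2.

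Mt4 had 0 reads in all 6 mice and was not tested. A count of 0 allows up to 3 reads, or at most 0.106 CPM in the smallest library.

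Ratios of counts within a library do not depend on the scaling of libraries. They were chosen after the values had been seen. The ratio of Mt2 to Mt1 in control mice 1 to 3 was 0.581, 0.515 and 0.488, against 0.438, 0.486 and 0.481 in ELS mice 1 to 3. All ELS mice lay below all control mice, but the gap between 0.488 and 0.486 was small beside the spread within each group. The mean log2 ratio differed by -0.17 (exact permutation p = 0.1, adjusted over 3 ratios 0.3). The ratio of Mt2 to Mt3 overlapped between groups (difference -0.18, exact permutation p = 0.3, adjusted 0.45). Mt1 to Mt3 was 0.592 to 0.608 in control mice and 0.552 to 0.653 in ELS mice (difference -0.01, exact permutation p = 1.0, adjusted 1.0).

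**Figure D2:**
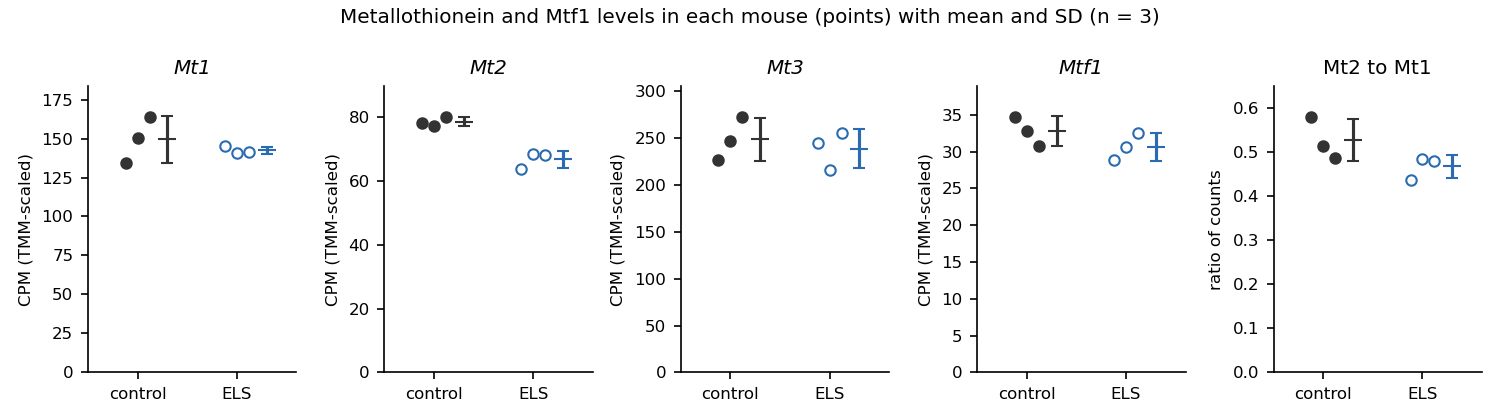
Levels of the 4 genes in each mouse (TMM-scaled CPM, y axes from 0) and the ratio of Mt2 to Mt1 counts, for control mice (filled) and ELS mice (open), in the order of their numbers. Bars beside the points are the mean and SD (n = 3). Mt2 shows a gap of 8.77 CPM between the groups, whereas Mt1, Mt3 and Mtf1 overlap.

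Across genes, levels were compared only as CPM per kb of the principal transcript. Mt3 stood first, at 464 ± 43.4 CPM per kb in control mice and 446 ± 38.7 in ELS mice (SD, n = 3 each). Mt1 followed at 272 ± 27.1 and 259 ± 4.24, and Mt2 at 154 ± 2.81 and 131 ± 5.28. No range over the 6 mice overlapped between these 3 genes, since Mt3 ran from 403 to 509, Mt1 from 245 to 299 and Mt2 from 124 to 157 CPM per kb. The next level among the metallothioneins and zinc transporters was that of Slc39a10, a zinc importer, at 61.8 in control mice and 66.2 in ELS mice. Slc30a3, which loads zinc into synaptic vesicles, had 41.4 and 41.6 CPM per kb. Mtf1 had 4.30 and 4.02 and ranked 20 of 29 genes. The order of Mt1 and Mt2 depended on the length: over the union of annotated exons, chosen after the data had been seen, Mt2 had 133 and 113 CPM per kb and Mt1 had 120 and 114, while Mt3 stayed first at 233 and 224. The principal transcripts of Mt1, Mt2 and Mt3 are 549, 511 and 536 bases long, short beside read pairs of 151 bases each, which makes their levels per kb less sure than those of long transcripts.

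**Figure D3:**
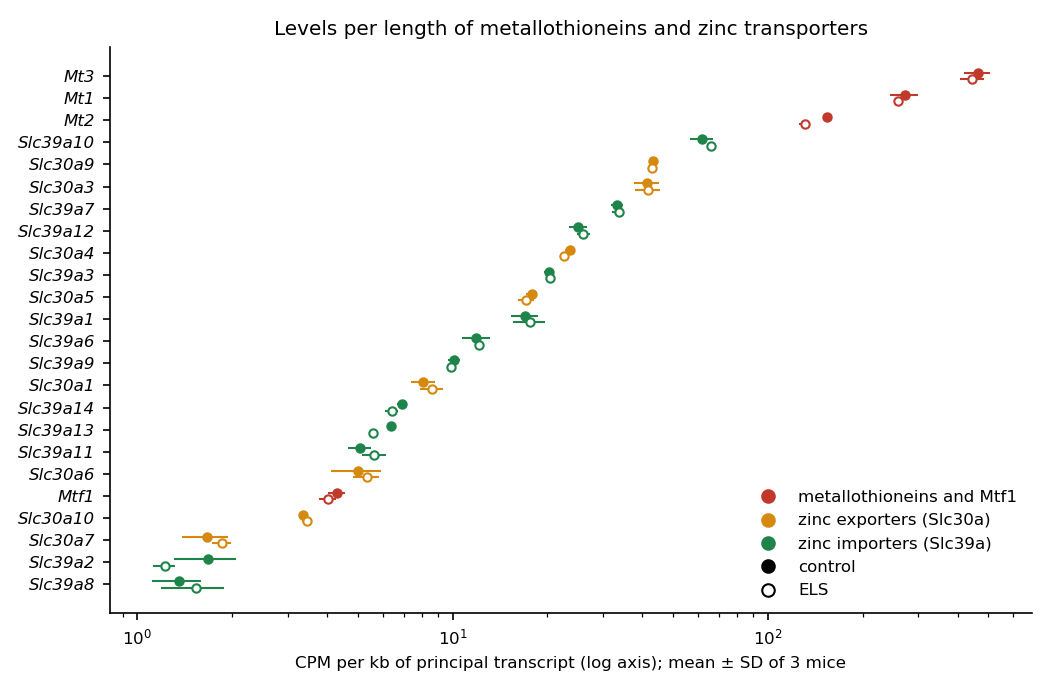
Levels per length of the metallothioneins, Mtf1 and the zinc transporters that passed the filter, as CPM per kb of principal transcript on a log axis (mean ± SD of 3 mice, control filled and ELS open). Mt3, Mt1 and Mt2 lie above every zinc transporter.

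Other genes of metal handling showed no calls. Of 5 tested genes on a list of 8 reported Mtf1 targets, 0 were called and 0 reached an unadjusted p under 0.05, and the median log2 fold change was 0.07 against -0.00461 over all genes tested. That median was -0.0393 without control mouse 1 and 0.0124 without ELS mouse 3. Slc30a1, the zinc exporter that Mtf1 controls, had 42.3 ± 3.73 CPM (control) and 45.2 ± 3.79 CPM (ELS; SD, n = 3 per group), a log2 fold change of 0.09. Slc39a10 had a log2 fold change of 0.10 and Gclc, a subunit of the enzyme that starts glutathione synthesis, -0.06. Among the zinc exporters, 8 of 10 were tested, 0 were called and 0 had an unadjusted p under 0.05 (median 0.03, or -0.00595 to 0.0327 with 1 mouse left out). Their 3 smallest p-values belonged to Slc30a7 (log2 fold change 0.16), Slc30a1 and Slc30a4 (-0.06), and Slc30a3 stood at 0.01.

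Among the zinc importers, 12 of 14 were tested and 0 were called, with a median of 0.02 (0.00179 to 0.0367 with 1 mouse left out). An unadjusted p under 0.05 was found for 2, both with a lower mean in ELS mice, against 2.34% of all genes. Slc39a2 had a log2 fold change of -0.46 (unadjusted p = 0.0364, adjusted p = 1.0) at 3.91 CPM in control mice. Slc39a13, which moves zinc out of the early secretory pathway, had 15.8 ± 0.122 CPM (control) and 13.8 ± 0.403 CPM (ELS; SD, n = 3 per group), with groups that did not overlap. Its log2 fold change was -0.19 (unadjusted p = 0.0487, adjusted p = 1.0). Slc39a14, next by p, stood at -0.11.

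Copper handling genes numbered 12, all tested, with 0 called, 0 at an unadjusted p under 0.05 and a median of 0.01. That median was -0.0429 without ELS mouse 1 and 0.0572 without ELS mouse 2. Of 12 iron handling genes, 11 were tested and 0 were called (median -0.01, or -0.0419 to 0.0136 with 1 mouse left out). The iron exporter gene Slc40a1 had 13.5 ± 0.904 CPM (control) and 18.1 ± 1.83 CPM (ELS; SD, n = 3 per group), without overlap. Its log2 fold change was 0.43 (unadjusted p = 0.00106, adjusted p = 0.66). Slc11a2 and Trf, an importer of iron and its carrier protein, had log2 fold changes of -0.06 and -0.07. Of 18 oxidative stress defence genes, 17 were tested and 0 were called (median -0.02, or -0.0559 to 0.0359 with 1 mouse left out). Slc7a11, the cystine importer, had a log2 fold change of 0.21 (unadjusted p = 0.0264, adjusted p = 1.0), and Txnrd1 and Sod3 stood at -0.09 and -0.11.

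Factors known to act on the Mt1 and Mt2 promoters gave 0 calls among 9 tested genes, with a median of -0.01 that turned to 0.048 without control mouse 1 and to 0.0618 without ELS mouse 2. Nr3c1, the glucocorticoid receptor gene, had 153 ± 10.7 CPM (control) and 161 ± 3.01 CPM (ELS; SD, n = 3 per group), a log2 fold change of 0.07. Hif1a was at 0.07 and Nr3c2, the mineralocorticoid receptor gene, at 0.08. Of 18 glucocorticoid-induced genes, 17 were tested, 1 was called (Zbtb16, log2 fold change -0.83, adjusted p = 0.003) and a lower ELS mean with an unadjusted p under 0.05 was found for 8, against 2.34% of all genes tested. The median was -0.26, and 7 of the 17 had every ELS mouse below every control mouse, against 4.47% of all genes. That list holds genes which the study had called on these mice, so its direction is not independent evidence. Without control mouse 3 the median was -0.146, where the Mt2 estimate was -0.22.

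**Figure D4:**
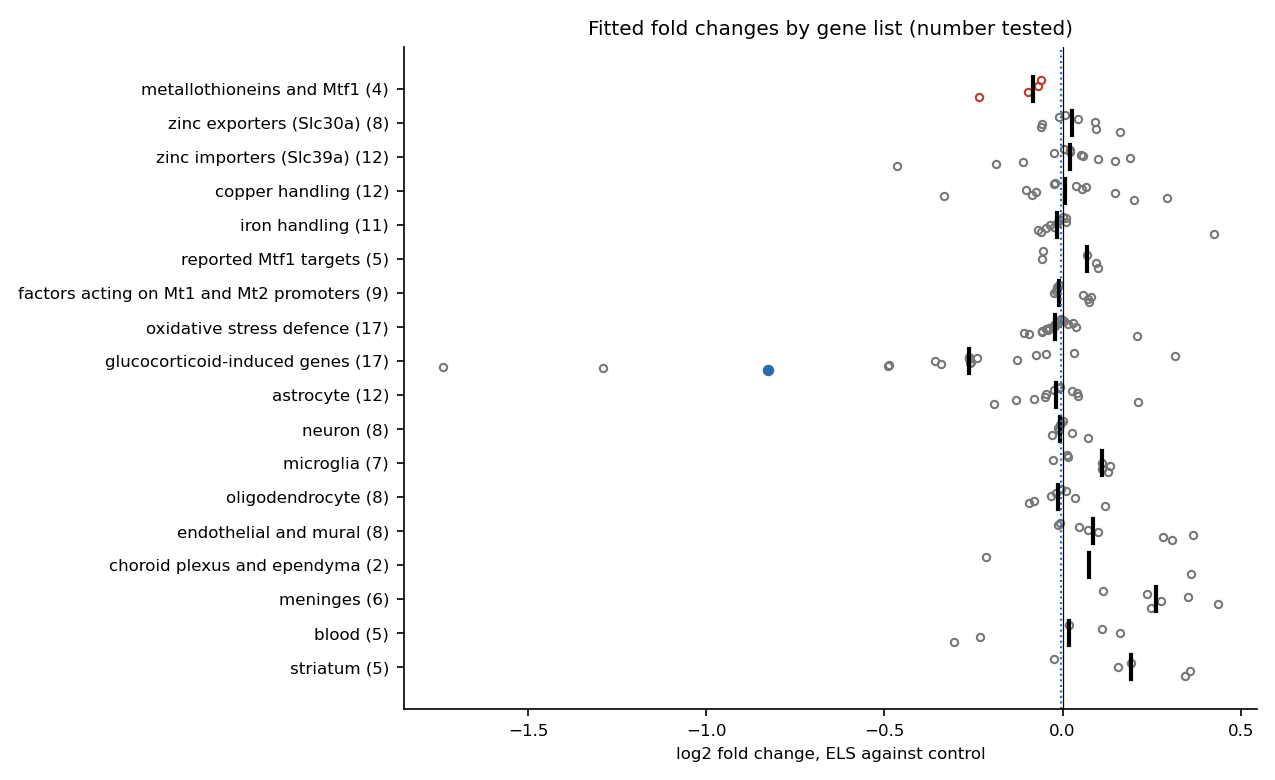
Fitted log2 fold changes, ELS against control, for each gene (points) of the 18 lists, with the list median as a black bar and the median of all genes tested as a dotted line. The metallothioneins and Mtf1 (red) lie between -0.23 and -0.06, and the filled blue point is Zbtb16, the only listed gene that was called.

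Marker genes of cell types were read beside Mt2 because Mt1 and Mt2 are astrocyte genes. Of 12 astrocyte markers, all were tested, 0 were called, and the median log2 fold change was -0.02 (-0.0555 to 0.0239 with 1 mouse left out). The summed astrocyte markers had 6890 to 7081 CPM in control mice and 6250 to 7171 CPM in ELS mice, so the groups overlapped. ELS mouse 1 had the lowest astrocyte sum and ELS mouse 3 the highest. Slc1a2 alone had means of 4150 CPM (control) and 3930 CPM (ELS), so these sums mostly follow that gene. Among single markers, Gjb6, an astrocyte connexin gene, had a log2 fold change of -0.19 (unadjusted p = 0.0186) and Aldh1l1 -0.13 (unadjusted p = 0.0654), each with every ELS mouse below every control mouse. Sox9, a transcription factor gene of astrocytes, stood at 0.21 (unadjusted p = 0.0358). The adjusted p was 1.0 for each of the 3.

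The other marker lists also gave 0 calls. Of 6 meningeal markers, all 6 had a positive log2 fold change (median 0.26, or 0.179 to 0.358 with 1 mouse left out), and their sums ran from 45.3 to 56.8 CPM in control mice and from 52.9 to 66.9 in ELS mice. Dcn, at 0.25, and Igf2, at 0.44, had an unadjusted p under 0.05 (2 of 6 genes, against 1.89% of all genes tested). Of 8 endothelial and mural markers, Cldn5, Pdgfrb and Kcnj8 (3 genes) fell under an unadjusted p of 0.05, at positive log2 fold changes of 0.31, 0.28 and 0.37, against 1.89% of all genes tested. The list median was 0.09 and ran from 0.0116 to 0.182 when 1 mouse was left out. Microglial markers had a median of 0.11 over 7 tested genes, with Cx3cr1 at 0.13, C1qa at 0.11 and Trem2 at 0.13. This median was 0.0172 without control mouse 1, 0.0387 without control mouse 2 and 0.0404 without ELS mouse 2. Neuronal markers had a median of -0.01 and oligodendrocyte markers of -0.01, each over 8 genes, with ranges of -0.0311 to 0.0365 and -0.0792 to 0.0595 when 1 mouse was left out. Blood markers had a median of 0.02 over 5 genes and choroid plexus and ependymal markers of 0.07 over the 2 that were tested. With 1 mouse left out, the blood median ran from -0.216 to 0.265 and the choroid plexus and ependymal median from -0.0212 to 0.157. Striatal markers in control mice 1 to 3 summed to 163, 176 and 315 CPM, against 300.2, 195 and 218 CPM in ELS mice 1 to 3, so that control mouse 3 and ELS mouse 1 stood apart. The log2 fold change of Mt2 was -0.22 without control mouse 3 and -0.203 without ELS mouse 1. The part of these marker levels in the Mt2 difference was not tested.

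Genes next to the cluster were examined because adjacent genes can share a difference. Within 250 kb of the span from Mt3 to Mt1, 18 further genes were annotated, 7 were in the table, and 6 were tested, with 0 called. The log2 fold changes were 0.00 for Nudt21, -0.03 for Ogfod1, -0.10 for Bbs2, -0.04 for Nup93 and -0.14 for Herpud1. Bbs2, a gene of the ciliary BBSome complex, had 20.4 ± 0.819 CPM (control) and 19.0 ± 0.641 CPM (ELS; SD, n = 3 per group), with no overlap (unadjusted p = 0.224). The genes nearest to Mt2 in the cluster, Mt1 and Mt3, had the values given above, with overlapping groups.

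Mt1 and Mt3 varied most alike among the 4 genes across the 6 mice. Pearson's r of log2(CPM + 1) was 0.772 (exact permutation p = 0.0681, adjusted over 6 pairs 0.408) and Spearman's rho was 0.771 (exact permutation p = 0.103, adjusted 0.617). Without control mice 1 and 3, the 2 mice farthest from the median of Mt1, r was 0.38 over the 4 that remain. It was 0.721 without control mouse 1 alone and 0.514 without control mouse 3 alone. Mt1 and Mt2 had r = 0.372 (exact permutation p = 0.497, adjusted 0.708; rho 0.2, p = 0.714, adjusted 0.857; r = 0.629 without the same 2 mice). Mt2 and Mtf1 had r = 0.603 (exact permutation p = 0.19, adjusted 0.571; rho 0.543, p = 0.297, adjusted 0.857; r = 0.749 without control mouse 3 and ELS mouse 1). The other 3 pairs had r between -0.415 and 0.253, with exact permutation p of at least 0.426 and adjusted p of at least 0.708. Their rho lay between -0.257 and 0.257 (exact permutation p of at least 0.658), and without the 2 farthest mice r was 0.223 for Mt1 with Mtf1, -0.0103 for Mt2 with Mt3 and -0.428 for Mt3 with Mtf1. With group means removed, r was 0.753 for Mt1 with Mt3, 0.115 for Mt1 with Mt2, -0.785 for Mt1 with Mtf1, 0.00261 for Mt2 with Mt3, 0.306 for Mt2 with Mtf1 and -0.378 for Mt3 with Mtf1. None of the 6 pairs passed the adjusted threshold, so a link between Mtf1 and metallothionein levels was not detectable with 6 mice.

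For each member, the 5 tested genes with the highest Pearson's r over the 6 mice were listed as a description. Mt2 was followed most closely by Pth2r (r = 0.994), Katnal1 (0.979), Il3ra (0.979), Slc39a13 (0.978) and Utp4 (0.972), and 15 genes exceeded 0.95. Mt2 and the zinc importer Slc39a13 both had groups that did not overlap, and their r over the 6 mice includes that group difference. Mt1 was followed by Ppp3cc (0.991), Cmtm3 (0.988), Hax1 (0.986) and Abhd17a (0.984), with 56 genes above 0.95. Mt3 was followed by Ccdc77 (0.997), Dpy30, Psph, Rpl12 and Timm10 (0.989), with 66 above 0.95, and Mtf1 by Lgr5 (0.984), Il6st, Trabd2b, Kif1a and Mlec (0.973), with 22. No gene named here stood on more than 1 of the 4 lists.

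The Mt2 estimate held its direction in all 19 alternative fits and was called in none of them, as were Mt1, Mt3 and Mtf1. Its log2 fold change ranged from -0.256 to -0.203 when 1 mouse was left out, and the adjusted p ranged from 0.195 to 1.0 over the 19 fits. The lowest adjusted p came without control mouse 3. Mt1 and Mt3 depended on that mouse, since without it their log2 fold changes were 0.00129 and 0.011, and without ELS mouse 2 that of Mt3 was 0.00624. Omission of single mice kept Mtf1 between -0.142 and -0.051.

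**Figure D5:**
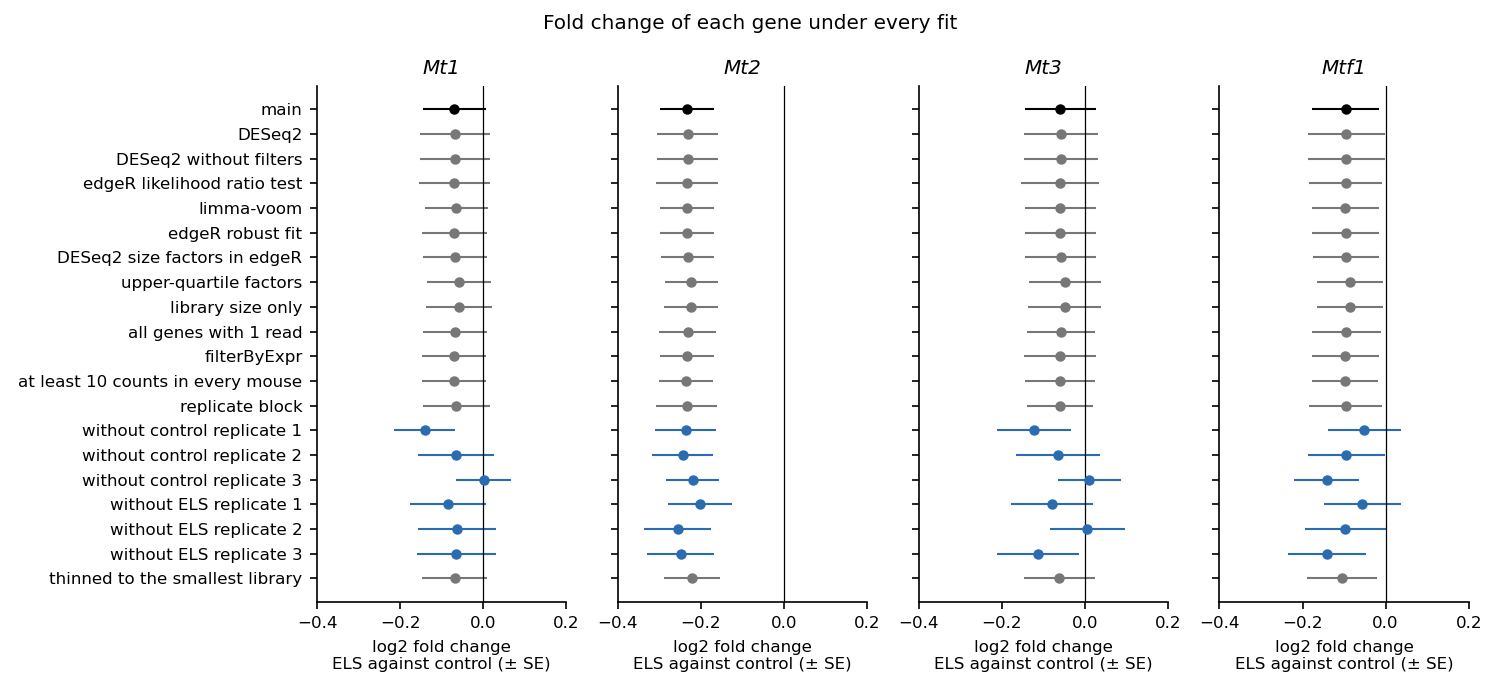
Log2 fold change, ELS against control, of Mt1, Mt2, Mt3 and Mtf1 (points, with SE) under the reported fit (black), other settings (grey) and after omission of single mice (blue). Mt2 stays below 0 throughout, Mt1 crosses 0 without control mouse 3, and Mt3 without control mouse 3 or ELS mouse 2.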

How the data were processed

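RNA from the PFC was sequenced as 151 bp pairs, and the authors trimmed the reads, used STAR for alignment (mm10) and HTSeq for counts of uniquely placed reads. The submitters' processing notes name STAR 2.7.1a and HTSeq 0.9.1. The deposited table holds unscaled raw counts, with 1 column per mouse and 1 row for each member and for Mt4. The study's text and the labels name different library kits, both stranded. Columns of ELS mice carry an abbreviation of social isolation and the mouse number, by which they were matched. Of 22000 symbols, 27 had been turned into dates and 89.2% were in GENCODE M21.

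The 13185 genes at 1 CPM or more throughout a group were fitted in R 4.3.3 with edgeR 4.0.16 (TMM factors, quasi-likelihood, condition as the only term), and Benjamini-Hochberg adjustment ran over all of them. DESeq2 1.42.0, limma 3.58.1 voom, the likelihood ratio test, other scalings and filters, thinning, omission of single mice and a replicate block were alternatives. Permutation tests ran over all arrangements of the mice in Python 3.11.15 and were two-sided. Ranks for Spearman's rho came from SciPy 1.17.1. Intervals within a mouse cover counting error only. Mice of a group differed by more than sampling noise (chi-square per degree of freedom 6.7 to 21.4). Quasi-likelihood p-values weigh a difference against the spread between mice, with each gene's variance drawn toward that of other genes. The tests of the members had 12.47 degrees of freedom.

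The members and gene lists were chosen with earlier results of these data known. Genes named are the 4 members and Mt4, the 5 genes most correlated with each member, the tested neighbours of the cluster, and in each metal, stress and astrocyte list the called genes or the 3 with the smallest p, plus Slc30a1, Slc30a3, Slc39a10 and Nr3c1. Of the genes this rule names, 2 are not reported here. Other genes given from the lists, and the ratios of counts, were chosen after the values were seen.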

Additional observations from a re-analysis of the deposited data

How the results depend on the processing

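The spread between mice exceeded the counting error for every member in both groups, except for Mt2 in control mice. The log2 fold changes of Mt2 and Mtf1 kept their sign in all 19 alternatives, and no member was called in any. Mt1 turned to 0.00129 without control mouse 3, in a leave-one-out range from -0.141 to 0.00129. Mt3 turned to 0.011 without control mouse 3 and to 0.00624 without ELS mouse 2, in a range from -0.122 to 0.011. The cause was not tested. The number of genes called was 2 in the reported fit, 18 with DESeq2 with or without its own filters, 28 with the likelihood ratio test, 4 without a filter beyond 1 read, and 1 to 29 with each mouse left out, with 29 without control mouse 3. The adjusted p of Mt2 was 0.343 with DESeq2 and 0.254 with the likelihood ratio test.

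Replicate numbers are shared between groups, but whether they pair mice is not stated. The study took ELS and control mice from litters of the same mother. Deviations of same-numbered mice correlated at -0.164, 0.258 and -0.0355. These values have no reference to be compared with, so they cannot settle whether the mice are paired. A replicate block gave 7 called genes and log2 fold changes of -0.0647 for Mt1, -0.234 for Mt2, -0.0588 for Mt3 and -0.0961 for Mtf1, with no member called.

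The correlation of Mt3 with Mtf1 turned to 0.191 without control mouse 1 (leave-one-out range -0.488 to 0.191). Without control mouse 3, that of Mt1 with Mt2 turned to -0.168 (range -0.168 to 0.811) and that of Mt2 with Mt3 to -0.17 (range -0.17 to 0.496). Over the union of exons, added after seeing the data, the mean level over 6 mice in CPM per kb was 117 for Mt1 (266 over the principal transcript), 123 for Mt2 (142), 229 for Mt3 (455) and 3.56 for Mtf1 (4.16).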
